A study of Mus musculus with 6 samples.

Results

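The genes described here are 36 genes of the lysosome, out of 55487 listed in the count tables. They comprise 4 lysosomal membrane proteins, 9 glycosidases, 3 sulfatases, 6 proteins of lipid and protein breakdown, 10 subunits of the proton pump V-ATPase, 3 transcription factors of the TFEB family, and Lyz2, the macrophage lysozyme. Cathepsins are not among them. They were matched by gene symbol through GENCODE M21 on GRCm38, and all 36 were found and were abundant enough to test. The libraries came from tumour-associated macrophages of Lewis lung carcinoma, a mouse lung carcinoma that can be passed between animals, taken from beneath the skin of C57BL/6 mice on day 15 to 17. Cells with CD11b and F4/80 on their surface and without Ly6C and Ly-6G were sorted and divided by surface MHC class II, the molecule that presents peptides to helper T cells. There were 3 libraries titled MHC-II high and 3 titled MHC-II low, in batches 1 to 3 that each hold 1 library of each title, with no treatment or genetic change named. Whether libraries of 1 title came from different mice is not stated, so p-values reflect variation among the 3 libraries of a title, part or all of which may be technical.

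Lysosomes are acidic organelles in which macrophages break down engulfed cells, proteins and lipids. The V-ATPase acidifies them: its membrane sector V0 carries protons and its cytosolic sector V1 splits ATP to drive V0. The soluble hydrolases reach the lysosome mostly on mannose 6-phosphate receptors. TFEB, TFE3 and MITF bind an E-box known as the CLEAR element, with the core CACGTG, before many lysosomal genes, and are held in the cytoplasm by mTORC1 when nutrients are plentiful.

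Transcripts of MHC class II went against the titles. H2-Aa, a chain of the molecule on which the sort was based, stood at 4.40, 5.48 and 6.69 CPM (reads scaled to the size of the library) under the label MHC-II high and at 1377, 1166 and 1506 CPM under the label MHC-II low, for replicates 1, 2 and 3. H2-Ab1, H2-Eb1 and Cd74 differed in the same direction, with log2 fold changes of -5.94, -8.34 and -6.64. The groups are therefore named by their labels, and every direction below is labelled high against labelled low. Reads in genes ranged from 10202879 to 25473051, and replicate 3 of the low label differed from the other 5 libraries, with 47.3% of its reads on 1 rRNA copy and 4669283 reads left outside rRNA and mitochondrial genes. CPM also rose with the GC content of genes in that library, by 0.70 on the log2 scale per 10 percentage points, against -0.58 to 0.08 in the other 5. Many results below are therefore also given with an offset that removes this trend from each library (the GC offset), and some also without labelled low replicate 3. The 12 macrophage markers all had reads and 0 were called, with a summed level of 5540 to 7330 CPM under the high label and 5260 to 11900 CPM under the low label. Among them Adgre1, which encodes the sorting marker F4/80, stood at 337, 321 and 372 CPM in labelled high and 219, 183 and 150.97 CPM in labelled low, without overlap (log2 fold change 0.90, adjusted p 0.132 by edgeR), and was called with the GC offset (0.76, adjusted p 0.0240) and by DESeq2 (adjusted p 0.00714). The 15 dendritic cell markers summed to 146 to 201 and 421 to 761 CPM, with 4 of 10 tested called lower. Of 10 T and NK cell markers 7 had reads, summing to 0.89 to 1.82 CPM in labelled high and 2.66 to 2.86 CPM in labelled low, and Cd3e, Cd3d and Cd8a had 0 reads. The 7 B cell markers summed to 2.50 to 2.90 and 7.36 to 13 CPM, and the 6 epithelial or carcinoma markers to 15.0 to 21.7 and 41.0 to 42.7 CPM, with 1 of 3 tested called lower. These 3 lists and the dendritic cell list did not overlap between labels. The 8 monocyte markers summed to 608 to 680 and 482 to 1120 CPM, and the 9 fibroblast markers to 73.5 to 413 and 131 to 603 CPM. Both of these overlapped, with 0 called. The sums and calls of these lists were taken without the offset, and the part of any of these lists in the results below was not tested. The neutrophil marker Ly6g had 0 reads.

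Of the 36 genes, 31 have a promoter in the RefSeq table of GRCm38.p6, from 250 bases before to 50 after a transcription start. The letters CACGTG, which read the same on both strands, occur in at least 1 listed promoter of 10 of these 31 genes (32.3%), against 8.09% of all 27025 genes with a promoter in the table. The longer form TCACGTG, on either strand, occurs in the same 10 and in 4.29% of all genes. Of 82 other lysosomal genes with a promoter, from the wider list below, 20.7% hold CACGTG and 19.5% TCACGTG, so the motif is not particular to the members. The copies overlap each other nowhere in the stretches below, which are 100 bases each and are shown because they hold the repeated copies or, for Atp6v1a and Lyz2, because these were the 2 members with the smallest unadjusted p. Capitals mark CACGTG.
Lamp1, chr8:13159061-13159160, plus strand: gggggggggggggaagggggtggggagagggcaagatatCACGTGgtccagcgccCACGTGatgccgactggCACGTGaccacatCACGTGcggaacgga
Mcoln1, chr8:3500419-3500518, plus strand: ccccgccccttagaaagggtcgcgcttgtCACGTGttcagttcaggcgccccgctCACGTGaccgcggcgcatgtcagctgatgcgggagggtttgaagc
Gla, chrX:134601156-134601255, minus strand: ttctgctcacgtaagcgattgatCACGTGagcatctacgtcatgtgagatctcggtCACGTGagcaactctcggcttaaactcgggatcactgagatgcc
Atp6v0b, chr4:117887330-117887429, minus strand: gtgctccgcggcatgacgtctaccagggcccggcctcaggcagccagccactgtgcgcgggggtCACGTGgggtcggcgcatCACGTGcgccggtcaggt
Atp6v1a, chr16:44139340-44139439, minus strand: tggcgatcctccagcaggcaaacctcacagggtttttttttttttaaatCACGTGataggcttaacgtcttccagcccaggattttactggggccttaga
Lyz2, chr10:117282273-117282372, minus strand: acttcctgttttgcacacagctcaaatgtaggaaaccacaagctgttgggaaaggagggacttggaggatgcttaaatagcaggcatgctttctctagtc
Lamp1 holds 4 copies within 61 bases of its start, Mcoln1, Gla and Atp6v0b hold 2, and Glb1, Gaa, Naglu, Arsa, Atp6v0d1 and Atp6v1a hold 1. Lyz2 has none in this window, nor have Psap, Grn, Tfeb, Tfe3 or Mitf. A match is a description of the letters. The 10 genes with the motif had a median log2 fold change between labels of -0.21, from -0.95 to 0.57, and the 21 without it -0.20, from -1.03 to 0.93. With the GC offset these medians were -0.02 and 0.04.

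Lyz2 was the member that differed most clearly between labels, with a level 1.91-fold higher under the high label, and most other members differed by less than the spread between libraries. None of the 36 passed an adjusted p of 0.05 by edgeR's quasi-likelihood test over 14140 genes, where 0.0919% of all genes were called higher in labelled high and 0.354% lower. At an unadjusted p under 0.05 stood 5 members, Lyz2, Atp6v1a, Lamp1 and Mitf on the higher side and Tfe3 on the lower, beside 574 and 1130 of all genes. By limma-voom 0 were called, beside 0.0707% of all genes higher and 0.297% lower, with 5 members and 1511 of 14140 genes at an unadjusted p under 0.05. By DESeq2 1, Lyz2, was called higher, against 0.397% of all genes called higher and 0.978% lower. These 2 shares are over 27192 genes with a p-value, whether or not an adjusted p was given, and not over 14140. With the GC offset edgeR called Lyz2 and Lamp1 higher and 0 members lower (0.856% and 1.68% of all genes), as it did with the offset and the batch as a block (1.14% and 2.63%). The median log2 fold change of the members was -0.13 without the offset and 0.06 with it, beside -0.02 and -0.03 for all genes tested. In bulk libraries fewer cells of a type and less RNA per cell cannot be told apart.

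**Figure D1:**
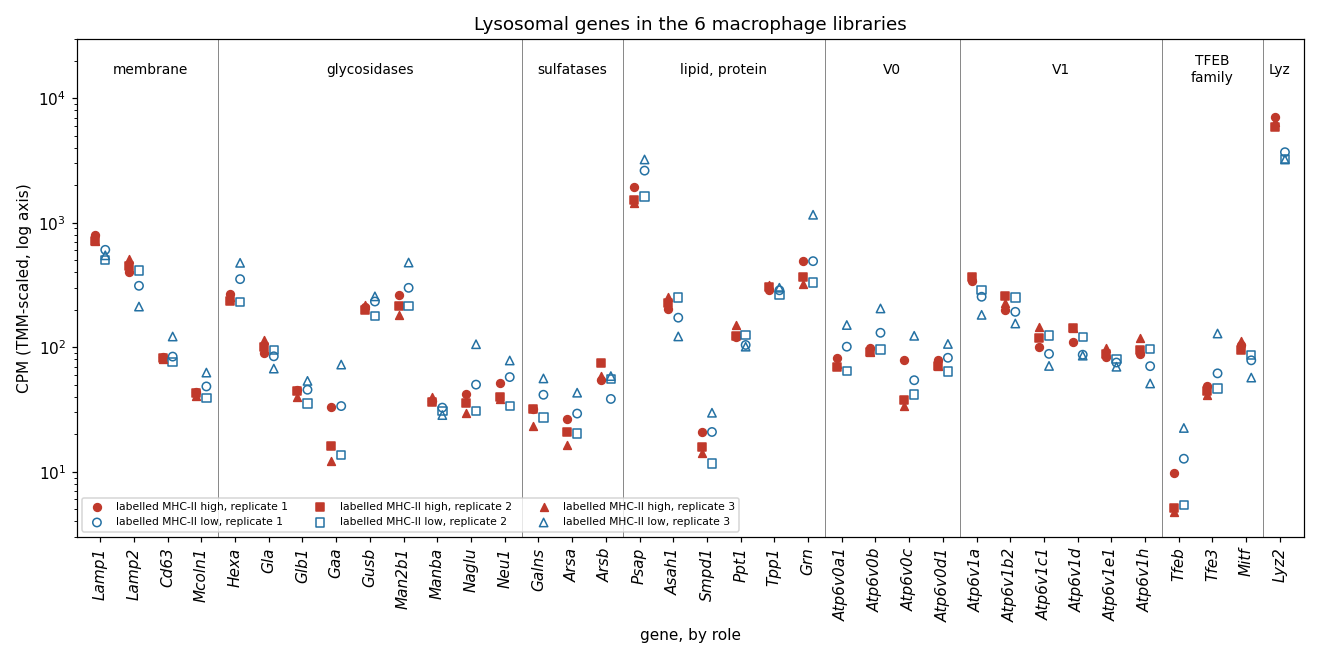
CPM on a log axis of the 36 genes in each of the 6 libraries, grouped by role (V0 and V1 are the V-ATPase sectors), with filled symbols for labelled MHC-II high, open symbols for labelled low and 1 symbol shape per replicate. Lyz2 stands at 5899.6 to 7023 CPM under the high label and 3222 to 3689 CPM under the low label, while for most other genes the open triangle, labelled low replicate 3, is the outermost of the 6.

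Lyz2, which encodes the bacterial cell wall-cleaving lysozyme of macrophages, lies on chromosome 10 from 117277331 to 117282321. It stood at 7023, 5899.6 and 6445 CPM in labelled high and at 3689, 3241 and 3222 CPM in labelled low. All 3 high values lay above all 3 low values, and the ratio was alike in every batch, with log2 values of 0.93, 0.86 and 1.00. The log2 fold change was 0.93 with a standard error of 0.20, a 95% interval of 0.48 to 1.38 and an adjusted p of 0.122 by edgeR. With the GC offset it was 0.85 with a standard error of 0.14 (adjusted p 0.0206, and 0.00625 with the block added), a 1.81-fold difference. Without labelled low replicate 3 the fold change was 0.90 without the offset (adjusted p 0.0914) and 0.86 with it (0.0331). Leaving out 1 of the 3 libraries labelled high or labelled low replicate 1 took the adjusted p with the offset to between 0.0542 and 0.0859, above the threshold. The log2 fold change of Lyz2 was 0.78 to 0.94 in these fits. Over all genes they called 23 to 38 higher and 77 to 108 lower, against 121 and 238 with all 6 libraries. For Lyz2 DESeq2 gave 0.96 with an adjusted p of 0.000264. Lyz1, the neighbouring lysozyme paralog with which reads can be shared, stood far lower, at 80.5 ± 12.1 and 55.2 ± 25.7 CPM (SD, n = 3 each), and did not pass (adjusted p 0.478). Lyz2 is itself a gene of macrophages and monocytes, and the macrophage gene Adgre1, given above, was higher in the same libraries. The macrophage list as a whole did not follow Adgre1 in the fit without the GC offset, with a median log2 fold change of -0.35 over its 12 markers. For the 7 monocyte markers tested the median in that fit was -1.01. Both medians include labelled low replicate 3 and were not taken with the offset. The dendritic cell markers that moved against Lyz2 are also given above. The part of any of these in the difference was not tested.

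The lysosomal membrane genes differed among themselves. Lamp1 and Lamp2 encode the abundant glycoproteins that line the membrane, Cd63 a tetraspanin of late endosomes and Mcoln1 the calcium channel TRPML1. Lamp1 (chromosome 8, 13159161 to 13175338) stood at 798, 718 and 708 CPM in labelled high and at 606, 500.2 and 548 CPM in labelled low, without overlap and with log2 ratios of 0.40, 0.52 and 0.37 in batches 1, 2 and 3. Its log2 fold change was 0.43 ± 0.17 (SE; adjusted p 0.40 by edgeR), and 0.55 ± 0.11 with the GC offset, which is 1.46-fold (adjusted p 0.0473, and 0.0310 with the block). With the offset and without labelled low replicate 3 it was 0.47 (adjusted p 0.0785), and the adjusted p was 0.0907 to 0.187 without labelled low replicate 1 or any 1 library labelled high, so this call was kept only when labelled low replicate 2 was the library left out (0.0407). An exon stretch of Grtp1 overlaps 9.3% of the Lamp1 exon length on the other strand, and the strand setting of the counting is not given in the sources used here. Lamp2 stood at 405, 449 and 508 CPM against 312, 412 and 212 CPM, so that the ranges met at replicate 2 of labelled low. The log2 fold change of Lamp2 was 0.54 without and 0.21 with the offset (adjusted p 0.429 and 0.306). Cd63 stood at 83.8, 81.4 and 79.9 CPM against 84.2, 76.5 and 122 CPM, with overlap, and its log2 fold change changed sign with the offset (-0.20 and 0.29). Mcoln1 stood at 40.7 to 44.0 CPM and 39.0 to 62.6 CPM.

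The 9 glycosidases, which trim sugars from glycoproteins, glycolipids and glycogen, had 0 called in either direction with or without the offset. Hexa, the alpha chain of the enzyme that degrades GM2 ganglioside, stood at 268, 235 and 251 CPM in labelled high and at 353, 231 and 477 CPM in labelled low. The value of labelled low replicate 2 fell below all 3 high values, and the other 2 lay above them. Gaa, which degrades glycogen, had the widest scatter within a label, with 33.2, 16.04 and 12.3 CPM against 33.7, 13.6 and 72.6 CPM. Its within-batch log2 ratios were -0.02, 0.24 and -2.57, and the log2 fold change of -0.95 ± 0.59 (SE) was -0.21 without labelled low replicate 3. Naglu, a heparan sulfate-degrading enzyme, and Man2b1, an alpha-mannosidase, showed the same shape, with log2 fold changes of -0.78 and -0.59 that were -0.17 and -0.23 without that library. Manba, the beta-mannosidase, was the 1 glycosidase whose labels did not overlap, at 36.4 to 40.1 CPM against 28.6 to 32.8 CPM (log2 fold change 0.30, adjusted p 0.467). Gusb, the beta-glucuronidase, was close to even at 210.1 ± 11.4 and 222 ± 40.6 CPM, as was Glb1, the beta-galactosidase, at 43.1 ± 2.80 and 44.9 ± 9.15 CPM. Gla, the alpha-galactosidase A, stood at 90.8 to 115 CPM against 67.5 to 95.5 CPM, and Neu1, a sialidase, at 38.3 to 51.5 CPM against 33.6 to 78.3 CPM.

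Of the sulfatases, Arsa and Galns had log2 fold changes of -0.52 and -0.51, which were -0.08 and -0.09 with the GC offset, and Arsb had 0.30 and 0.37. Arsb, which removes sulfate from dermatan sulfate, stood at 54.4, 74.1 and 59.4 CPM against 38.5, 55.3 and 58.7 CPM, higher in each batch but with overlapping ranges. None passed (adjusted p 0.463 to 0.525 by edgeR). An antisense transcript covers 18.8% of the Arsa exon length. On the other strand Tmem202 exons likewise overlap 12.8% of the Hexa exon length, and Gm12841 exons 11.8% of that of Atp6v0b.

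Psap and Grn both scattered more under the low label than under the high label. Psap encodes prosaposin, the precursor of the saposins that help enzymes degrade sphingolipids. It stood at 1921, 1515 and 1445 CPM in labelled high and at 2623, 1622 and 3224 CPM in labelled low, lower in labelled high in all 3 batches although the ranges overlapped. The log2 fold change was -0.61 ± 0.28 (SE; adjusted p 0.420), and -0.25 with the offset, with a 95% interval of -0.54 to 0.04. Grn encodes progranulin, a secreted and lysosomal glycoprotein. It stood at 491, 367 and 323 CPM against 492, 331 and 1159.8 CPM. Apart from labelled low replicate 3 these values were alike, and without that library the log2 fold change was -0.07 in place of -0.75. Tpp1, a peptidase, was among the steadiest members at 306 ± 14.7 and 284 ± 18.7 CPM, with a log2 fold change of 0.11 and a 95% interval of -0.26 to 0.47. Asah1 (acid ceramidase), Ppt1 (palmitoyl-protein thioesterase) and Smpd1 (acid sphingomyelinase) had log2 fold changes of 0.32, 0.26 and -0.29, and of 0.09, 0.04 and 0.15 with the offset.

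**Figure D2:**
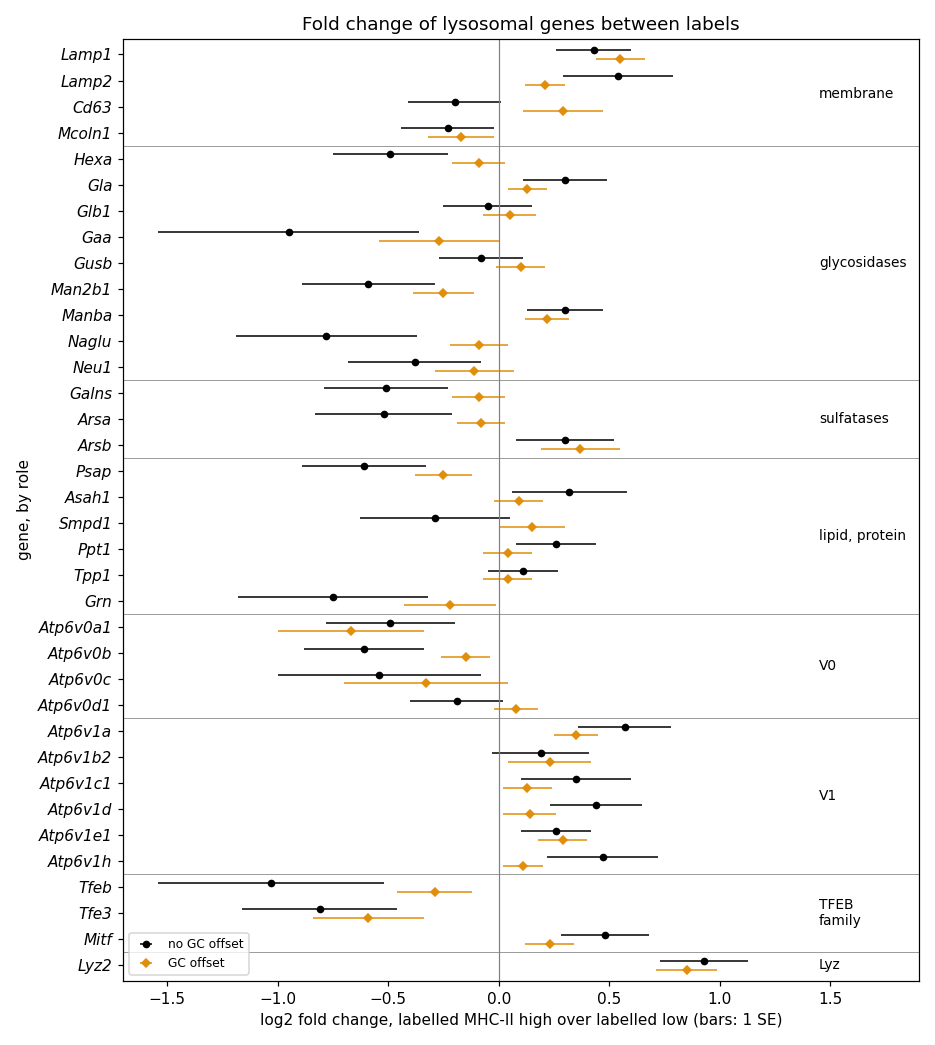
Log2 fold change of each gene, labelled MHC-II high over labelled low, by edgeR without the GC offset (black circles) and with it (orange diamonds), with bars of 1 standard error. With the offset most values move toward 0, and Lyz2 at 0.85 and Lamp1 at 0.55 are the members called.

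Among the members, the sectors of the V-ATPase had fold changes of opposite sign with all 6 libraries, which for V0 did not hold without labelled low replicate 3. All 6 V1 subunits had values above 0, with a median log2 fold change of 0.39, and all 4 V0 subunits had values below 0, with a median of -0.51. Without labelled low replicate 3 the medians were 0.24 for V1, with 6 of 6 above 0, and -0.07 for V0, with 2 of 4 above 0. They were 0.19 and -0.24 with the GC offset. None of the 10 was called by edgeR, with or without the offset (1, Atp6v1a, had an unadjusted p under 0.05 without it). Atp6v1a, the catalytic A subunit of V1, was the most distinct, at 340.1, 367 and 369.8 CPM in labelled high and 255, 289.6 and 182 CPM in labelled low. Its labels did not overlap, and its log2 fold change was 0.57 ± 0.21 (SE; adjusted p 0.382), 0.35 with the offset (adjusted p 0.130) and 0.40 without labelled low replicate 3. Atp6v1e1, a stalk subunit, also had separate ranges, at 83.5 to 97.9 CPM against 69.8 to 80.6 CPM. The B subunit gene Atp6v1b2 stood at 199, 259.8 and 228 CPM against 193, 251 and 155 CPM. For it and for Atp6v1c1, Atp6v1d and Atp6v1h the 2 labels overlapped, and the lowest of the 6 libraries was labelled low replicate 3. Of V0, Atp6v0b, a proteolipid of the proton ring, stood at 99.6, 91.7 and 91.5 CPM against 131, 96.1 and 205 CPM, with a log2 fold change of -0.61 that was -0.15 with the offset. Atp6v0c, the main ring subunit, stood at 78.6, 37.8 and 34.1 CPM against 54.4, 41.7 and 124 CPM, and its fold change turned from -0.54 to 0.06 without labelled low replicate 3. Its processed pseudogenes Atp6v0c-ps2 and Atp6v0c-ps1 had 198 and 7 reads in all libraries, against 5948 for Atp6v0c. The a subunit gene Atp6v0a1 and the d subunit gene Atp6v0d1 had log2 fold changes of -0.49 and -0.19, and of -0.67 and 0.08 with the offset. Atp6v0a1 passed with the offset when labelled low replicate 2 was left out (log2 fold change -0.95, adjusted p 0.0319), a fit that called 266 of 14378 genes higher and 613 lower. Atp6v0a1 had a GC content of 47.0%, the lowest of V0. Without labelled low replicate 3 it had -0.21 with the offset (adjusted p 0.740) and -0.14 without.

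The balance between V1 and V0 was higher in labelled high within each batch, while the ranges of the labels overlapped. The mean log2 CPM of the 6 V1 genes minus that of the 4 V0 genes was 0.65, 1.27 and 1.38 in labelled high and 0.36, 1.17 and -0.62 in labelled low. Labelled low replicate 2 lay within the labelled high range, and labelled low replicate 3 alone was below 0. With the GC offset these differences were 0.61, 1.04 and 1.00 and 0.47, 0.88 and -0.07. V1 genes had a GC content of 37.6% to 50.4% and V0 genes of 47.0% to 55.9%. Summed without the offset, the 10 subunit genes among the members stood at 1263, 1341 and 1372 CPM in labelled high and at 1138, 1229.8 and 1201 CPM in labelled low. Other subunit genes, such as Atp6v0a2 and Atp6v1g2, are on the wider list below and not in this sum or balance.

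Across the 36 members the fold change fell as GC content rose. The 13 genes below 50% GC had a median log2 fold change of 0.35, with 12 above 0, and the 23 at 50% or more had a median of -0.49, with 4 above 0. Over the members the Spearman correlation was -0.84 (Pearson -0.80), and over 14123 genes tested it was -0.58. These are descriptions across genes that share the same 6 libraries. Without labelled low replicate 3 it was -0.75 over the members and -0.29 over all genes. With the offset the medians of the classes were 0.13 and -0.09 and the correlation over members -0.45, against -0.04 over all genes. The offset used the longest transcript of each gene, which need not be the one expressed. Labelled low replicate 3 was the highest of the 6 libraries for 20 members and the lowest for 13. The coefficient of variation over 3 libraries was wider under the low label for 33 of 36 members, with medians of 11.6% and 30.1%.

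**Figure D3:**
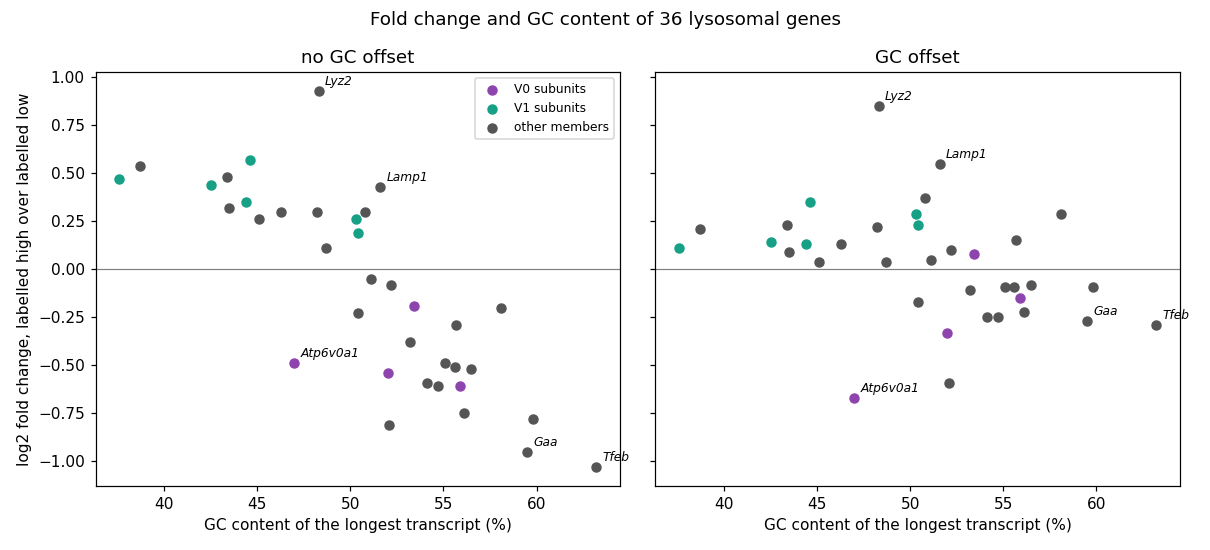
Log2 fold change (vertical) against the GC content of the longest transcript in percent (horizontal) for the 36 genes, without (left) and with (right) the GC offset, with V0 subunits in purple and V1 subunits in green. On the left the 23 genes at 50% GC or more have a median of -0.49 and the others 0.35, and on the right -0.09 and 0.13, while Lyz2 and Lamp1 stay high in both.

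The 3 TFEB-family genes among the members did not move together. Tfeb itself was the member with the lowest level per length, at 9.74, 5.08 and 4.72 CPM in labelled high and 12.7, 5.40 and 22.5 CPM in labelled low, with a log2 fold change of -1.03 ± 0.51 (SE) and of -0.29 with the offset. Tfe3 stood at 48.7, 44.6 and 41.3 CPM against 61.8, 46.6 and 129 CPM. Replicate 2 of the low label lay inside the high range, and the log2 fold change of -0.81 ± 0.35 (SE; adjusted p 0.414) was -0.59 with the offset (adjusted p 0.290) and -0.27 without labelled low replicate 3. Mitf went the other way, at 103, 95.4 and 112 CPM against 78.6, 86.2 and 57.1 CPM, without overlap (log2 fold change 0.48, adjusted p 0.405, and 0.23 with the offset). Per kilobase of exon Mitf stood at 16.7 and 11.9 CPM, Tfe3 at 4.85 and 8.54 CPM and Tfeb at 1.15 and 2.39 CPM under the high and the low label, with the transcripts of each gene merged. Tfec, the fourth gene of the family, stood at 17.0 ± 2.55 and 12.2 ± 4.52 CPM before division by length (adjusted p 0.503).

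Counted by ranges alone, 6 of the 36 members lay higher in all 3 libraries labelled high than in all 3 labelled low, namely Lamp1, Manba, Atp6v1a, Atp6v1e1, Mitf and Lyz2, and 0 lay lower. Of all genes tested 10.5% lay higher and 9.48% lower in this sense. With the GC offset 7 members lay higher, where Lamp2 and Gla joined and Mitf left, and 1, Tfe3, lay lower, beside 11.1% and 12.5% of all genes. By level per kilobase of exon, averaged over the 6 libraries, the members ranged from 1.77 CPM for Tfeb to 3739 CPM for Lyz2. After Lyz2 came Psap at 750.2, Lamp1 at 242 and then Grn and Hexa, both at 152 CPM. Under the high label alone Hexa, at 126 CPM per kilobase, was above Grn, at 113.

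A wider list of 102 other lysosomal genes held 93 that could be tested, with 0 called by edgeR (11 and 10 at an unadjusted p under 0.05 on the higher and lower side) and a median log2 fold change of -0.02. Over all genes 574 and 1130 of 14140 stood at that p. With the GC offset 2 of the 93 were higher, Igf2r and Hgsnat, and 4 were lower, Slc29a3, Gm2a, Slc15a3 and Rogdi, beside 0.856% and 1.68% of all genes. Igf2r, a mannose 6-phosphate receptor that carries hydrolases to lysosomes, stood at 309, 281 and 242 CPM in labelled high and at 172, 147 and 173 CPM in labelled low. Its labels were well apart, with a log2 fold change of 0.76 ± 0.18 (SE; adjusted p 0.154) and of 0.85 ± 0.11 with the offset (adjusted p 0.00699). The offset kept Igf2r under the threshold when any 1 library was left out, with adjusted p values of 0.00789 to 0.0437. M6pr, the other mannose 6-phosphate receptor, was not called with the offset. Its labels overlapped without the offset, and with it labelled high lay below labelled low. Hgsnat, an acetyltransferase of heparan sulfate breakdown in the lysosomal membrane, stood at 104 ± 4.35 and 73.7 ± 6.31 CPM (0.54 with the offset, adjusted p 0.0240, and 0.0844 to 0.109 without labelled low replicate 1 or any 1 library labelled high). Aga, which frees asparagine from sugars, and Vma21, a V-ATPase assembly factor, had log2 fold changes of 0.92 and 0.77 and did not pass by edgeR with or without the offset over all 6 libraries. DESeq2 called Aga (adjusted p 0.0452), and the offset without labelled low replicate 3 called both (adjusted p 0.0358 and 0.0356).

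The 4 genes lower with the offset were higher in the libraries rich in MHC class II transcripts. Slc29a3, a nucleoside exporter of lysosomes, stood at 48.1, 47.8 and 51.8 CPM in labelled high and at 142, 90.9 and 197 CPM in labelled low. All 3 low values lay above all 3 high ones, and the log2 fold change was -1.54 ± 0.28 (SE; adjusted p 0.0791) and -1.46 with the offset (adjusted p 0.0131). Gm2a, the activator protein that presents GM2 ganglioside to hexosaminidase, stood at 366, 379 and 365 CPM against 699.8, 552 and 888 CPM (-1.04 with the offset, adjusted p 0.0333). Its partner Hexa, given above, had -0.09 with the offset. Slc15a3, a peptide and histidine transporter of endolysosomes, stood at 92.0 ± 12.3 and 228 ± 119.7 CPM (-0.72 with the offset, adjusted p 0.0301). For Rogdi, at 3.27 ± 0.976 and 11.8 ± 7.92 CPM, the adjusted p with the offset was 0.0418 and rose to 0.0505 with the block. Without labelled low replicate 3 the adjusted p values with the offset were 0.0121 for Slc29a3, 0.0285 for Gm2a, 0.0470 for Slc15a3 and 0.0840 for Rogdi. Leaving out labelled low replicate 1 or any 1 library labelled high took all 4 above the threshold, to between 0.0570 and 0.168. Dendritic cell markers were also higher in these libraries, and their part was not tested.

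**Figure D4:**
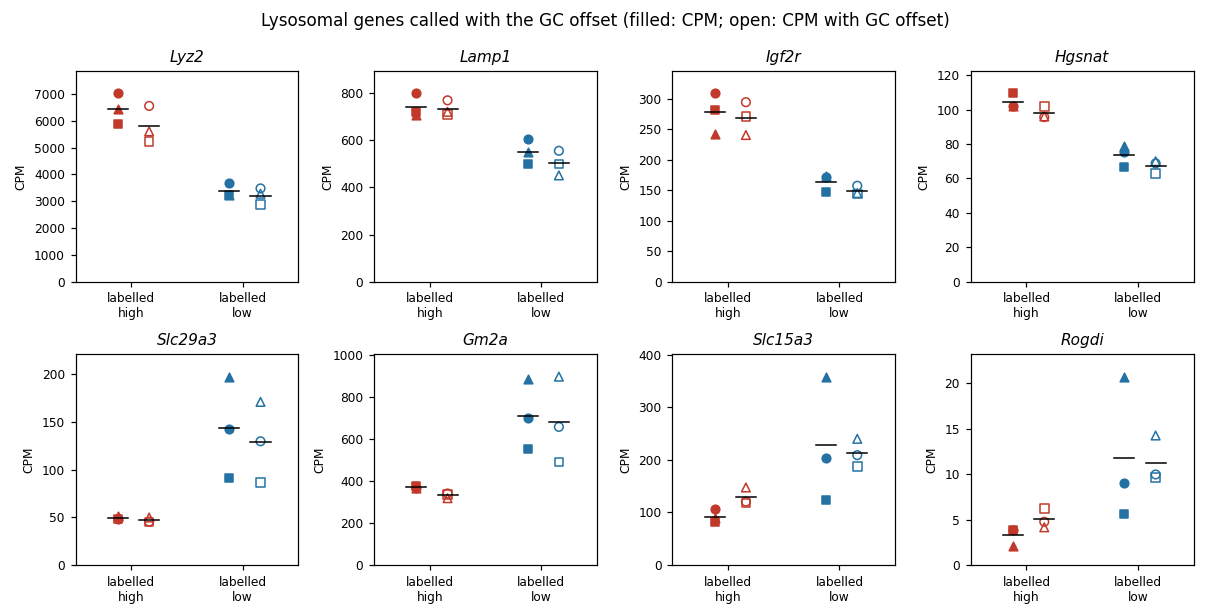
CPM of the 2 members (Lyz2, Lamp1) and 6 other lysosomal genes called with the GC offset, by label, with red for labelled MHC-II high, blue for labelled low, filled symbols without and open symbols with the offset, circles, squares and triangles for replicates 1, 2 and 3, and bars at the means. The upper 4 genes are higher and the lower 4 lower in all 3 libraries labelled high, and the spread of Slc29a3, Gm2a, Slc15a3 and Rogdi is wider under the low label.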

How the data were processed

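The authors deposited raw read counts per Ensembl gene, 1 table of 55487 genes for each of 6 libraries of rRNA-depleted total RNA. Per the submitters' processing notes FastQC, Trimmomatic, STAR, HTSeq, DESeq2 and GRCm38 were used, with versions not given in the sources used here. Of the listed reads 35.2% to 49.4% fell in no feature, ambiguous reads were 0.324% to 0.864% and multiply aligned reads were 7.60% to 17.4%, and all 3 classes stayed out of library sizes. Symbols, exon lengths and GC content came from GENCODE M21, which matched 55227 genes.

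The tests ran in edgeR 4.0.16 under R 4.3.3: TMM factors, genes kept by filterByExpr, and a quasi-likelihood test of the label alone, with Benjamini-Hochberg adjustment over 14140 genes. The test was checked on simulated data with the real library sizes. These held no GC trend, so the check does not cover the trend seen in labelled low replicate 3. CPM values use TMM-scaled library sizes. Standard errors were taken from the fold change and the square root of F. The GC offset is a local regression (span 0.4) of log2 CPM on GC content in each library. Alternatives used limma 3.58.1 (limma-voom), DESeq2 1.42.0, other scalings and filters, and fewer libraries. Labels and replicate numbers came from the titles. The labels give replicate number and batch alike, which pairs the libraries. Deviations from the label means correlated at 0.16, 0.33 and -0.12 within batches 1, 2 and 3. Between libraries of different batches the correlations ran from -0.49 to 0.35, a range that includes the values within batches. Members and lists were chosen with earlier results of these data known. Named were all 36 members, the MHC class II genes that check the labels, and other lysosomal genes that were called or had the 4 smallest p in each direction. Further genes were named for their place in a family or as a paralog. The lowest member count in a library was 114 reads.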

Additional observations from a re-analysis of the deposited data

How the results depend on the processing

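Without the GC offset 0 members were called higher, except 1 by DESeq2, 1 without a filter on low counts and 0 to 1 when a library was left out (1, Lyz2, without labelled low replicate 2). The GC offset called 2, with or without the block, and 0 to 2 when a library was also left out, an alternative chosen after seeing the data (2 without labelled low replicate 2, 1 without labelled low replicate 3, 0 otherwise). Members called lower numbered 0 except 1, Atp6v0a1, in the second of these series (range 0 to 1). Of the other lysosomal genes DESeq2, the offset, and the offset with the block each called 2 higher and 4 lower, against 0 and 0. The genes were not all the same. DESeq2 called Aga (adjusted p 0.0452) and not Hgsnat (0.170), and edgeR with the offset called Hgsnat (0.0240) and not Aga (0.244). Without a filter 7 of the other lysosomal genes were lower. Leaving out a library gave 0 to 3 higher and 0 to 14 lower, and with the offset 1 to 5 higher (5 without labelled low replicate 2, 4 without replicate 3) and 0 to 11 lower (11 and 3). The calls over all genes varied between these offset fits as well. They were 266 higher and 613 lower of 14378 without labelled low replicate 2, and 109 and 206 of 14920 without labelled low replicate 3. Without labelled low replicate 1 or any 1 library labelled high they were 23 to 38 higher and 77 to 108 lower.

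Over all genes 13 were higher and 50 lower. DESeq2 called 108 and 266, the offset 121 and 238, and no filter 113 and 436. Total counts gave 8 higher. Without batch 3 the calls were 0 and 28, and without 1 library 0 to 246 and 8 to 784, the upper ends being those without labelled low replicate 2. With the replicate block, the pairing by batch, 1 gene was called higher without the offset, and with it 161 higher and 372 lower. The block changed no call of a member, and among the other lysosomal genes it moved Rogdi out and Acp5 in (adjusted p 0.0272) under the offset.

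Signs turned for members with small or scattered fold changes. With the offset Cd63 had 0.29, Glb1 0.05, Gusb 0.10, Smpd1 0.15 and Atp6v0d1 0.08, and with the block added the same except Smpd1 at 0.16. Without labelled low replicate 3 the values were 0.02 for Cd63, 0.09 for Glb1, 0.03 for Gusb, 0.05 for Smpd1, 0.06 for Atp6v0c and 0.01 for Atp6v0d1, and these were the upper ends over left-out libraries, whose lower ends were -0.30, -0.17, -0.19, -0.54, -0.99 (without labelled high replicate 1) and -0.32 (the other 5 without labelled low replicate 2). Without batch 3 they were 0.04 for Cd63, 0.15 for Glb1, 0.06 for Gaa, 0.17 for Smpd1, 0.06 for Grn, 0.28 for Atp6v0c and 0.04 for Atp6v0d1. Glb1 had 0.03 without a filter and 0.02 by total counts, which moved the median of all genes by 0.27 and are given relative to it. The causes were not tested. The median over members moved by less than its SD between batches, 0.338, under every alternative run. That SD is a wide measure, since the batch medians were -0.01, 0.14 and -0.51 and batch 3 holds labelled low replicate 3. The sign of the median was not kept, at -0.13 in the main test, 0.06 with the offset and 0.04 without labelled low replicate 3. With 3 libraries per label and a median standard error of 0.25 (0.12 with the offset), small differences could not be detected.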
